A study of Chlamydomonas reinhardtii with 4 samples.

Results

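Carbonic anhydrase genes (CAH), low-CO2 inducible genes (LCI), the carrier genes CCP1 and CCP2 and the regulator gene CCM1 of the green alga Chlamydomonas reinhardtii were followed by RNA sequencing with and without silver nanoparticles (AgNPs). They were taken by symbol from tables of 17741 genes, and 37 rows matched: 26 LCI, 8 CAH, 2 CCP and CCM1. The symbol patterns for HLA3, CIA and NAR1 matched 0 rows. The tables write NAR1 genes with a dot, such as NAR1.2, which the pattern did not take in.

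All cells were of the wild-type strain FACHB-1121 and grew in TAP medium, which contains acetate, at 25 °C under 2000 lux with agitation. The groups were cells with 0.5 mg/L AgNPs at 12 h, cells with 0.5 mg/L AgNPs at 2 h, control cells at 12 h and control cells at 2 h. Each group holds 1 library, so every difference below compares single libraries, has no replicate check and carries no p-value. In RNA from a whole culture, fewer cells that express a gene and less of its RNA per cell cannot be told apart.

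CO2 diffuses slowly in water, and Chlamydomonas answers low CO2 with a carbon-concentrating mechanism. Bicarbonate is pumped across the plasma membrane and the chloroplast envelope, carbonic anhydrases interconvert bicarbonate and CO2, and CO2 is released beside Rubisco, which is packed in the pyrenoid. The zinc-binding protein CCM1 (also called CIA5) is needed to switch these genes on when CO2 is short, and acetate in the medium is known to keep several of them low in the light.

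Values are FPKM, fragments scaled to transcript length and library size, as the authors deposited them. The FPKM values summed to 1663726 and 1252796 in the AgNP libraries at 12 h and 2 h, and to 1143199 and 492502 in the controls at 12 h and 2 h, so the 2 h control stands apart. From the spacing of values under 0.2 FPKM, reads were estimated to be sparser than in the 2 h control by factors of 0.363 and 0.566 for the AgNP libraries at 12 h and 2 h and 0.566 for the 12 h control, with the unknown scaling between libraries included. Absolute depth is unknown, and FPKM gives no counting interval.

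Of the 37 genes, 15 averaged 5 FPKM or more across all 4 libraries and were compared, among 3271 such genes of the whole table. A difference is the log2 ratio of FPKM + 1, which understates the change of low genes, and is counted from 2-fold. The median of all genes compared was itself above 0, at 0.44 for AgNPs over control at 12 h, 0.48 at 2 h, 0.20 for 12 h over 2 h with AgNPs and 0.26 in the controls. Counts are therefore also given with ratios centred on that median, and with libraries scaled to equal FPKM sums, where the 4 medians were -0.07, -0.77, -0.17 and -0.87. The filter uses the mean, so a high enough value in a single library can carry a gene past it, and the 15 do not stand for all 37. CAH5, with a mean of 5.30 FPKM, lay just inside it and CCP2, with 4.82, just outside.

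**Figure D1:**
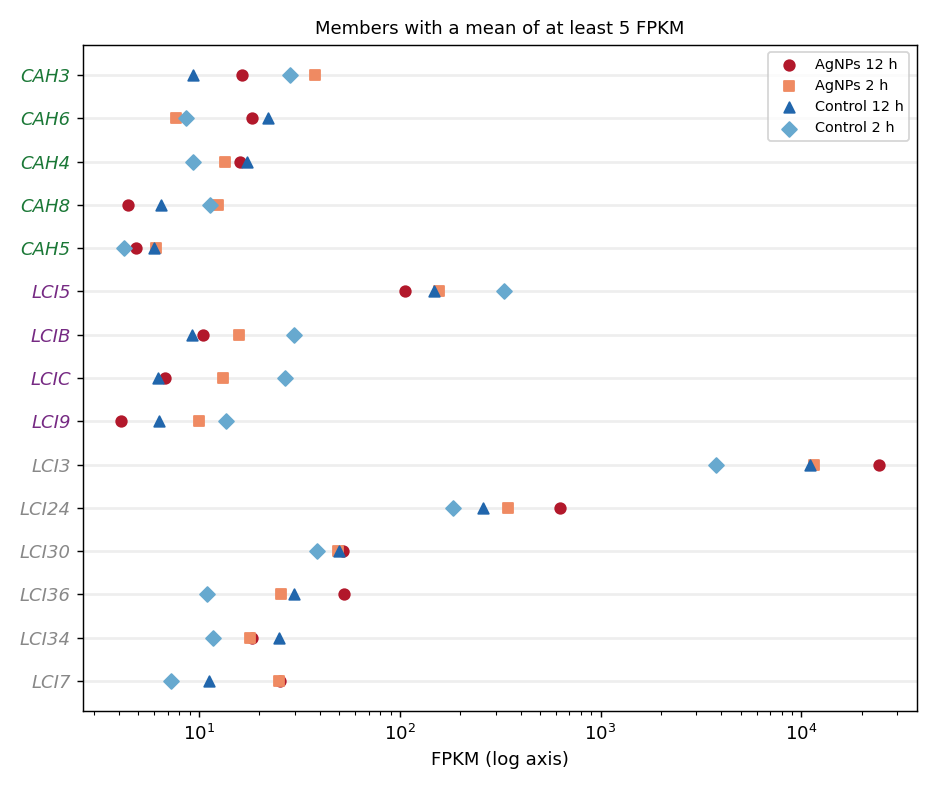
FPKM (log axis) of the 15 genes that averaged 5 FPKM or more, 1 point per library. Symbols are green for carbonic anhydrases, purple for genes of the pyrenoid and the LCIB family and grey for other LCI genes. LCI5, LCIB, LCIC and LCI9 are highest in the 2 h control, while LCI3 stands at 3777 FPKM or more in every library.

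Several genes known for strong induction under low CO2 were at or near 0 in all 4 libraries, while others of the set, such as LCIB, LCIC, CAH4 and LCI5, were not. CAH1, the periplasmic carbonic anhydrase that is the classic low-CO2 marker, was listed at 0 FPKM in both AgNP libraries and the 12 h control and at 0.0920 in the 2 h control. LCI1, a plasma membrane protein of inorganic carbon uptake, stood at 0.263 and 0.404 FPKM with AgNPs at 12 h and 2 h and at 0.0875 and 0.193 in the controls at 12 h and 2 h. These levels are too low for a comparison. LCIE was listed at 0 in every library, and its relative LCID did not exceed 0.735 FPKM. CCP1, a carrier gene next to LCIE, stood between 0.111 and 0.497 FPKM. NAR1.2, the gene of the chloroplast envelope protein also called LCIA, lies outside the symbol patterns and was looked up after the other values were seen: it was listed at 0 in the 12 h AgNP library and between 0.0643 and 0.0712 FPKM in the other libraries. LCR1, a regulator of CAH1 and LCI1, was listed at 0 in all 4.

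In all, 22 of the 37 genes had a mean under 5 FPKM. Every library was under 1 FPKM for 8 of them: LCIE, CAH1, LCI6, LCI12, LCI23, LCI1, CCP1 and LCID. For another 8 the highest library lay between 1.21 FPKM (LCI26) and 4.09 FPKM (LCI15): LCI26, LCI13, CAH2, LCI28, LCI33, LCI15, LCI31 and LCI21. CAH2, a periplasmic carbonic anhydrase known from high CO2, belongs to these, with 0.353 and 1.18 FPKM with AgNPs at 12 h and 2 h against 0.977 and 2.42 in the controls at 12 h and 2 h. The remaining 6 reached 5 FPKM in at least 1 library. CCM1 stood at 1.44 and 3.57 FPKM with AgNPs at 12 h and 2 h, against 2.67 and 7.17 in the controls at 12 h and 2 h. Thus the regulator was lower with AgNPs at each time and lower at 12 h with and without them. LCI20, a chloroplast glutamate and malate translocator gene, showed the same order, with 0.734 and 4.04 FPKM with AgNPs at 12 h and 2 h and 2.33 and 6.67 in the controls. CCP2, the counterpart of CCP1, had 5.88 and 5.65 FPKM with AgNPs at 12 h and 2 h and 1.56 and 6.21 in the controls at 12 h and 2 h. The 12 h control is the low library for CCP2. The log2 ratio of AgNPs over control for CCP2 was 1.42 at 12 h and -0.12 at 2 h. Under equal sums these values were 0.97 and -1.32, so which time passes 2-fold depends on the scaling. CAH7, a beta-type carbonic anhydrase gene, followed time: 6.02 and 1.63 FPKM with AgNPs at 12 h and 2 h, and 6.70 and 1.06 in the controls at 12 h and 2 h. LCI19 stood at 4.85 and 5.07 FPKM with AgNPs at 12 h and 2 h, against 1.65 and 3.69 in the controls. LCI8 stood at 3.21 and 5.07 FPKM with AgNPs at 12 h and 2 h, against 2.37 and 4.26 in the controls. Both were higher with AgNPs at each time on the deposited scale, while under equal sums LCI8 was lower at both times and LCI19 at 2 h (-0.76).

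**Figure D2:**
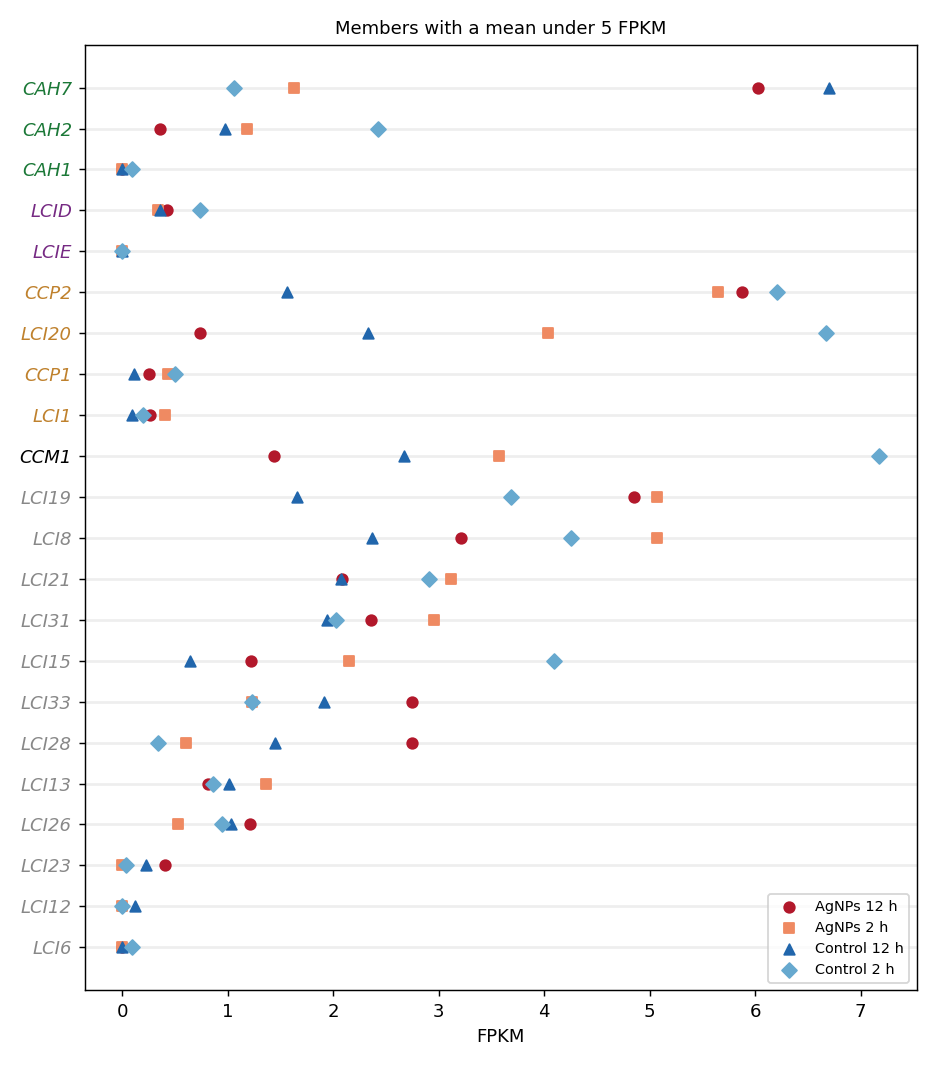
FPKM (linear axis) of the 22 genes with a mean under 5 FPKM, 1 point per library, with symbols coloured by role (ochre for transporters, black for CCM1, otherwise as for the more abundant genes). CCM1 and LCI20 are highest in the 2 h control and lowest in the 12 h AgNP library, and CAH7 is high in both 12 h libraries.

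On the deposited scale, the 4 genes of the pyrenoid and of the LCIB complex that were compared (LCI5, LCIB, LCIC and LCI9) had the 4 lowest ratios of the 15 between AgNPs and control at 2 h. All 4 were negative, while the median gene stood at 0.48. With the trend of the ratios with gene span removed, CAH6 (-0.71) lay below LCI9 (-0.44). CAH3, whose enzyme also acts inside the pyrenoid, is grouped with the carbonic anhydrases below. Its ratio at 2 h was 0.39, or -0.93 under equal sums, so the low ratios do not cover every pyrenoid gene. LCI5, better known as EPYC1, encodes the linker protein that holds Rubisco together in the pyrenoid (chromosome 10, 2526075 to 2528332, annotation version 5.5). It stood at 106 and 157 FPKM with AgNPs at 12 h and 2 h, against 148 and 329 in the controls at 12 h and 2 h. Its log2 ratio of AgNPs over control was -1.06 at 2 h and -0.48 at 12 h, so the AgNP library was the lower one at both times. LCIB (chromosome 10, 4608866 to 4611901) encodes a carbonic anhydrase-like protein that works with LCIC around the pyrenoid to recapture leaking CO2. LCIB stood at 10.5 and 15.8 FPKM with AgNPs at 12 h and 2 h, against 9.28 and 29.9 in the controls at 12 h and 2 h. LCIC (chromosome 6, 8466076 to 8469153) stood at 6.79 and 13.2 FPKM with AgNPs at 12 h and 2 h, against 6.24 and 26.9 in the controls. For both partners the 2 h control was the high library, and the 12 h libraries lay close together.

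The ratios of AgNPs over control at 2 h were -0.88 for LCIB and -0.97 for LCIC, just short of 2-fold on this scale, and those at 12 h were 0.16 and 0.11. The 12 h values turned to -0.28 and -0.33 when centred, while the 2 h values kept their sign under each scaling. The difference of these effects, 12 h minus 2 h, was 1.04 for LCIB and 1.07 for LCIC. They were the 2 genes of the 15 with a difference of at least 2-fold upward, where 1.77% of all genes compared had one, and 0 of the 15 had one downward, where 2.93% of all genes did. With centred ratios the 15 again gave 2 upward and 0 downward (2.17% and 2.51% of all genes), while equal sums gave 5 upward and 0 downward (24.1% and 0.275%). LCIB and LCIC were of similar abundance throughout, with a ratio of LCIB to LCIC in FPKM of 1.55 and 1.19 with AgNPs at 12 h and 2 h and of 1.49 and 1.11 in the controls at 12 h and 2 h. LCI9, a starch-binding protein gene of the pyrenoid, stood at 4.11 and 9.98 FPKM with AgNPs at 12 h and 2 h, against 6.32 and 13.7 in the controls. It was lower with AgNPs at both times, by ratios of -0.52 at 12 h and -0.42 at 2 h.

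Place among all genes compared depends little on a common scaling of a library. For AgNPs over control at 2 h, 1.28% of the genes compared had a lower ratio than LCI5, 1.99% a lower one than LCIC, 2.32% than LCIB and 8.90% than LCI9. With libraries scaled to equal sums these shares were 1.07%, 1.71%, 2.14% and 8.62%. At 12 h they were 7.25% for LCI5, 30.8% for LCIC, 34.1% for LCIB and 6.60% for LCI9. The low 2 h ratios all take the single 2 h control as their reference. Set against the 12 h control instead, the 2 h AgNP library had log2 ratios of 0.083 for LCI5, 0.71 for LCIB, 0.98 for LCIC and 0.58 for LCI9, in which time and exposure are mixed. The median gene stood at 0.23 there, above LCI5 and below the other genes named.

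Among the 8 carbonic anhydrase genes, 5 were compared, and 0 were 2-fold apart between AgNPs and control at either time, also with centred ratios. The shares of all genes compared that passed 2-fold were 16.7% upward and 0.459% downward at 12 h, and 22% upward and 1.62% downward at 2 h, so a count of 0 among 5 genes does not set them apart. With centred ratios the shares were 3.03% upward and 5.35% downward at 12 h, and 5.47% and 6.97% at 2 h. Under equal sums CAH6 (-1.40) and CAH8 (-1.13) passed 2-fold downward at 2 h, where 35.6% of all genes did. CAH3 (chromosome 9, 7702059 to 7704127) encodes the enzyme of the thylakoid lumen that releases CO2 inside the pyrenoid. CAH3 stood at 16.4 and 37.7 FPKM with AgNPs at 12 h and 2 h, against 9.35 and 28.6 in the controls at 12 h and 2 h. It was the only one of the 5 with a higher value in the AgNP library at 12 h, with ratios of 0.75 at 12 h and 0.39 at 2 h, or 0.25 and -0.93 under equal sums. With the trend of the ratios with gene span removed, CAH3 stood at 0.0039 at 12 h and -0.35 at 2 h. CAH4 and CAH5, mitochondrial beta-type enzymes, are neighbours on chromosome 5, with 2065 bp and 0 other genes between them. Their near-identical sequences may share reads, so each value is uncertain. CAH4 had 16.0 and 13.5 FPKM with AgNPs at 12 h and 2 h, against 17.5 and 9.34 in the controls. CAH5 had 4.85 and 6.11 FPKM with AgNPs at 12 h and 2 h, against 6.002 and 4.25 in the controls. For both genes the AgNP library was the higher one at 2 h and the lower one at 12 h, but under equal sums it was the lower one at both times (-0.77 and -0.73 at 2 h). CAH6, a beta-type enzyme first placed in the chloroplast stroma, had 18.4 and 7.66 FPKM with AgNPs at 12 h and 2 h, against 22.03 and 8.66 in the controls. CAH8, a beta-type enzyme of the cell periphery, had 4.42 and 12.5 FPKM with AgNPs at 12 h and 2 h, against 6.52 and 11.3 in the controls. On the deposited scale both lay nearer to their counterpart of the same time than to the other time, which for CAH6 did not hold under equal sums (-1.40 for AgNPs over control at 2 h, 0.13 for 12 h over 2 h in the controls).

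The 6 remaining LCI genes that were compared are known by their induction under low CO2, and no role is given for them here. With AgNPs 3 of the 6 were at least 2-fold higher at 12 h and 3 at 2 h, where 16.7% and 22% of all genes compared were. With centred ratios the counts were 0 and 2, where 3.03% and 5.47% of all genes were higher, and under equal sums 0 of the 6 were higher at either time (2.32% and 0.795% of all genes). LCI7 stood at 25.3 and 25.0 FPKM with AgNPs at 12 h and 2 h, against 11.2 and 7.28 in the controls at 12 h and 2 h. Both AgNP libraries lay above both controls, with ratios of 1.11 at 12 h and 1.65 at 2 h, and with equal sums of 0.59 and 0.41. Removing the trend of the ratios with gene span left 0.35 at 12 h and 0.91 at 2 h. LCI24 stood at 627 and 347 FPKM with AgNPs at 12 h and 2 h, against 259 and 185 in the controls, again with both AgNP libraries above both controls. Its ratios were 1.27 at 12 h and 0.91 at 2 h, and with equal sums 0.73 and -0.44, so its direction at 2 h depends on the scaling. Removing the span trend left 0.44 at 12 h and 0.029 at 2 h for LCI24.

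LCI3 was the most abundant gene of the set. It stood at 24245 and 11567 FPKM with AgNPs at 12 h and 2 h, against 11089 and 3777 in the controls at 12 h and 2 h, which made it the 17th and 33rd gene of the AgNP libraries and the 30th and 34th gene of the controls. It took 1.46% and 0.923% of the FPKM sum with AgNPs at 12 h and 2 h, and 0.970% and 0.767% in the controls. The other 36 genes together took 0.0601% and 0.0622% with AgNPs at 12 h and 2 h, and 0.0556% and 0.154% in the controls at 12 h and 2 h. LCI3 had log2 ratios of AgNPs over control of 1.13 at 12 h and 1.61 at 2 h, and with equal sums of 0.59 and 0.27. Its table entry spans chromosome 9, 5832519 to 5851746, and Cre09.g402256 is listed with the same span. RefSeq ends LCI3 at 5834176 and starts its neighbour before that, so reads in the overlap could belong to either. Cre09.g402256 stood at 1.65 and 2.60 FPKM with AgNPs at 12 h and 2 h and 2.97 and 5.10 in the controls, far below LCI3.

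LCI36 stood at 53.0 and 25.7 FPKM with AgNPs at 12 h and 2 h, against 29.7 and 11.0 in the controls at 12 h and 2 h. Its ratio at 2 h was 1.16, but -0.11 with equal sums and -0.20 against the 12 h control. LCI34 stood at 18.5 and 17.9 FPKM with AgNPs at 12 h and 2 h, against 25.1 and 11.8 in the controls, and LCI30 at 52.0 and 49.6 against 49.7 and 38.5. On the deposited scale LCI30 was the steadiest of the 6, with ratios of 0.063 at 12 h and 0.35 at 2 h, or -0.47 and -0.97 under equal sums.

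**Figure D3:**
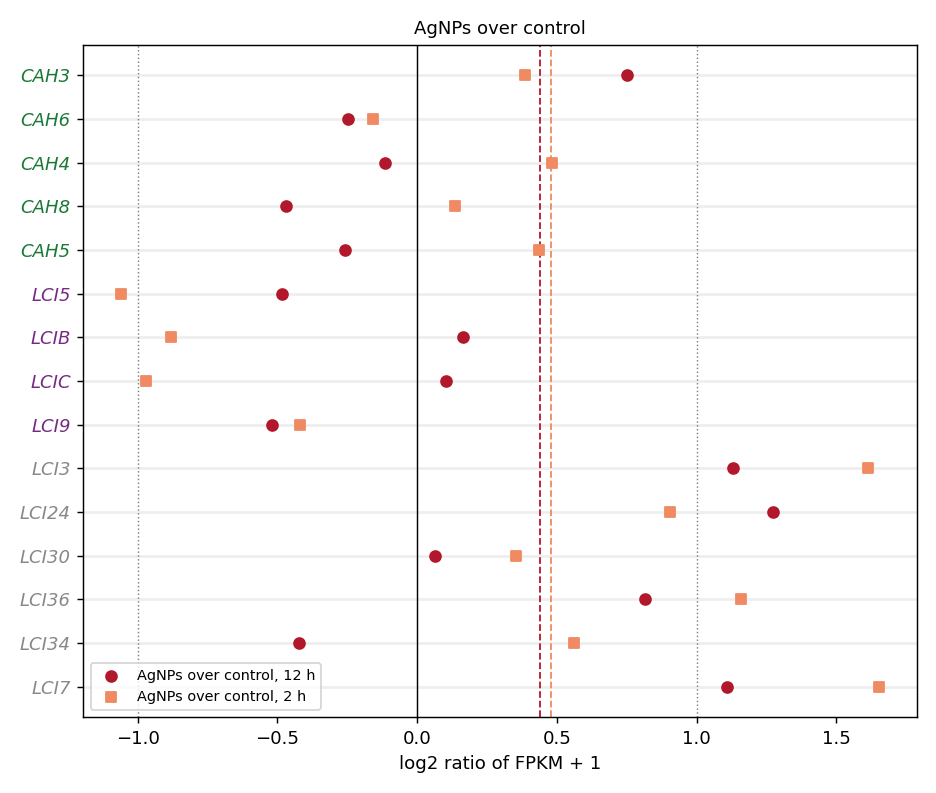
Log2 ratio of FPKM + 1, AgNPs over control, for the 15 genes at 12 h and 2 h. Dashed lines are the medians of all 3271 genes compared (0.44 and 0.48), dotted lines mark 2-fold. The 4 purple symbols lie left of the 2 h median, and LCI7 and LCI3 lie beyond 2-fold at both times.

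Over the 15 genes, 3 were at least 2-fold higher with AgNPs at 2 h, against 22% of all genes compared, and 1 was at least 2-fold lower, against 1.62%. The higher ones were LCI7, LCI3 and LCI36 and the lower one LCI5. The median ratio of the 15 was 0.39. With centred ratios 2 were higher (5.47% of all genes) and 3 lower (6.97%), namely LCI5, LCIC and LCIB. Under equal sums the 15 held 0 higher (0.795%) and 6 lower genes (35.6%). At 12 h, 3 were at least 2-fold higher (16.7% of all genes), namely LCI24, LCI3 and LCI7, and 0 lower (0.459%), with a median of 0.063. With centred ratios 0 of the 15 were 2-fold apart at 12 h in either direction, against 3.03% of all genes higher and 5.35% lower. Under equal sums 0 of them were higher (2.32%) and 1, LCI5, lower (5.78%). LCI7 and LCI3 were the 2 genes at least 2-fold higher at both times on the deposited scale. Of the 15 ratios, 9 lay below the median gene at 2 h and 10 at 12 h.

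On the deposited scale, several genes passed 2-fold between the 12 h and 2 h libraries but stayed within it between AgNPs and control. In the controls, all 4 pyrenoid and LCIB complex genes were at least 2-fold lower at 12 h, where 7.8% of all genes compared were (12.4% centred and 43.6% under equal sums, with 4 of the 4 in each). The log2 ratios of 12 h over 2 h in the controls were -1.95 for LCIC, -1.59 for LCIB, -1.14 for LCI5 and -1.01 for LCI9. LCI9 fell short of 2-fold with a pseudocount of 5 (-0.72) and with the span trend removed (-0.84). With AgNPs the ratios were -0.87 for LCIC, -0.55 for LCIB, -0.57 for LCI5 and -1.11 for LCI9, so 1 of the 4 passed 2-fold, where 8.07% of all genes compared did, or 2 of the 4 with centred ratios, where 12.4% did. All 8 of these ratios were negative, and they stayed so with equal sums. In the controls 1.35% of all genes compared had a lower ratio than LCIC and 2.45% a lower one than LCIB, and with AgNPs the shares were 10.5% and 19.5%.

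Carbonic anhydrase genes split by time. CAH3 was at least 2-fold lower at 12 h in both pairs, with ratios of -1.15 with AgNPs and -1.52 in the controls. CAH6 went the other way, with 1.17 with AgNPs and 1.25 in the controls, and with equal sums 0.77 and 0.13. CAH8 was lower at 12 h in both, past 2-fold with AgNPs (-1.32) and short of it in the controls (-0.71). For CAH4 the ratios were 0.23 with AgNPs and 0.83 in the controls, and for CAH5 -0.28 and 0.41, and all 4 were negative under equal sums. Of the other LCI genes, LCI3 (1.07 with AgNPs, 1.55 in the controls) and LCI36 (1.01 and 1.36) were at least 2-fold higher at 12 h in both pairs, and positive but short of it under equal sums. LCI34 passed 2-fold in the controls (1.03) and stood at 0.04 with AgNPs; with equal sums the value in the controls was -0.12.

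With AgNPs 3 of the 15 genes were at least 2-fold higher at 12 h (17.1% of all genes compared) and 3 lower (8.07%). In the controls 4 were higher (20.2%) and 5 lower (7.8%). With centred ratios 0 were higher and 4 lower with AgNPs, against 11.6% and 12.4% of all genes, and 2 were higher and 5 lower in the controls, against 13.3% and 12.4%. Under equal sums the AgNP pair gave 0 higher and 4 lower, against 8.04% and 16% of all genes, and the control pair 0 higher and 6 lower, against 2.57% and 43.6%. The medians of the 15 were 0.015 with AgNPs and 0.41 in the controls. The time and AgNP comparisons share libraries: the high 2 h control values of LCI5, LCIB and LCIC enter both their AgNP ratio at 2 h and their time ratio in the controls.

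**Figure D4:**
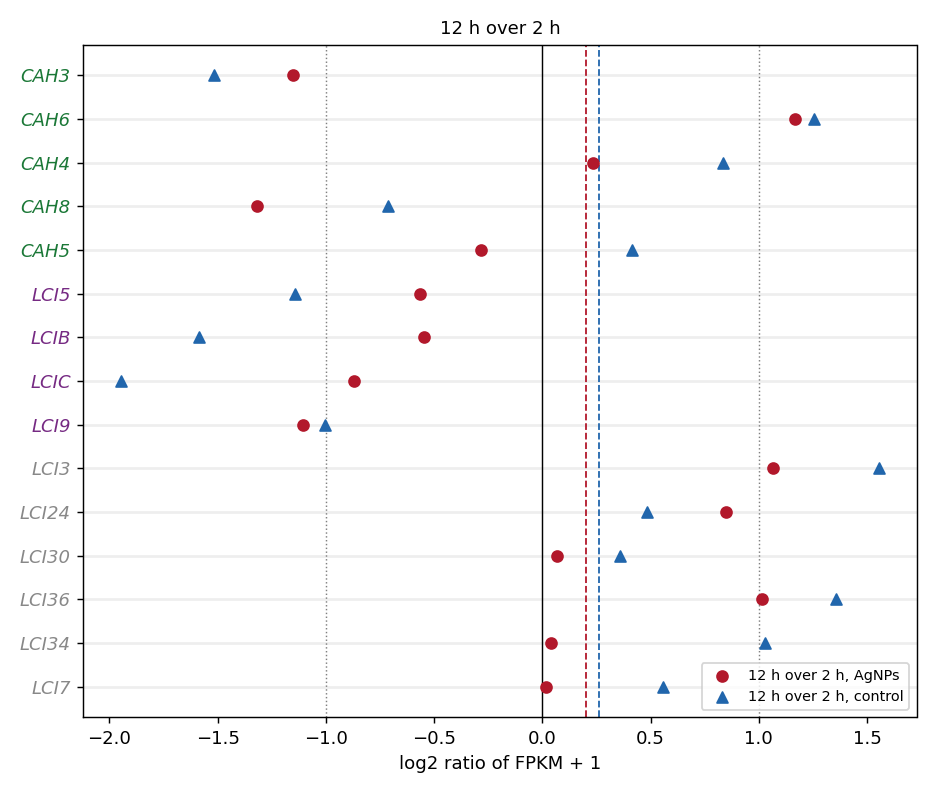
Log2 ratio of FPKM + 1, 12 h over 2 h, for the 15 genes with AgNPs and in the controls. Dashed lines are the medians of all 3271 genes compared (0.20 with AgNPs, 0.26 in the controls), dotted lines mark 2-fold. CAH3, CAH8 and the 4 purple symbols lie left of 0 in both pairs, and CAH6, LCI3 and LCI36 lie beyond 2-fold to the right.

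**Figure D5:**
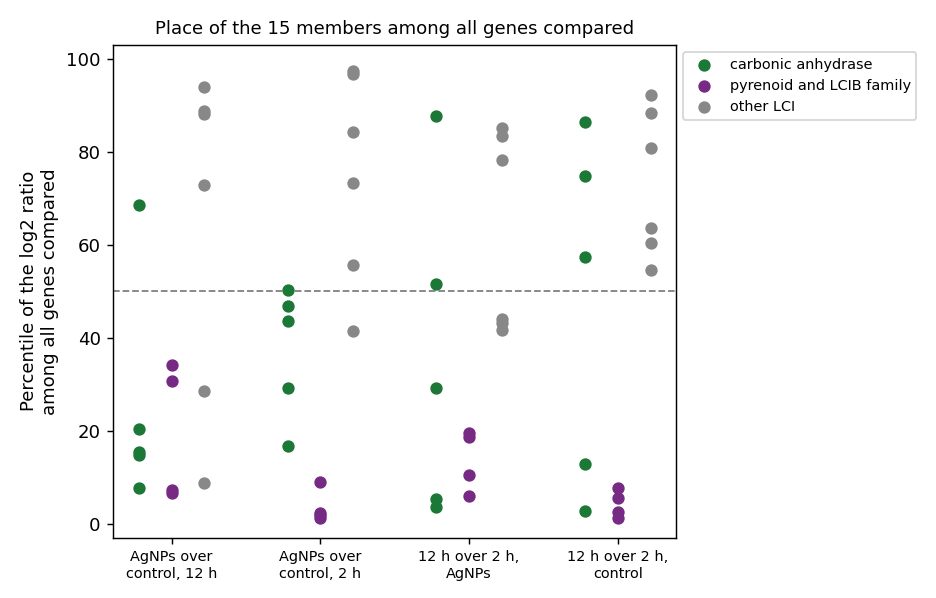
Share of all 3271 genes compared that had a lower log2 ratio than each of the 15 genes (percentile), by comparison and role. The 4 genes of the pyrenoid and LCIB family lie below percentile 50 in each of the 4 comparisons shown and between 1.28 and 8.90 for AgNPs over control at 2 h, while LCI7 reaches 97.2 and LCI3 96.7 there.

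Several members lie next to each other. On chromosome 4, CCP2 and LCID are 91 bp apart, CAH2 and CAH1 1092 bp and LCIE and CCP1 128 bp, with 0 other genes between the partners of each pair. The pairs follow one another with 3 other genes between LCID and CAH2 and 3 between CAH1 and LCIE. Of these 6 genes CCP2 alone reached 5 FPKM in any library, and its neighbour LCID stayed under 1 FPKM. CCP1 and CCP2, and LCID and LCIE, are close copies that may share reads.

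Genes that work beside the carbon-concentrating mechanism were followed from 3 lists of symbols. Of 16 symbols of other inorganic carbon genes 8 were found, and 4 of these were compared. CAG2, a gamma-type carbonic anhydrase-like protein of mitochondrial complex I, stood at 253 and 159 FPKM with AgNPs at 12 h and 2 h, against 158 and 75.9 in the controls. Its relative CAG3 stood at 134 and 83.6 FPKM with AgNPs at 12 h and 2 h, against 64.7 and 45.1 in the controls. Both were higher with AgNPs, CAG2 past 2-fold at 2 h (1.06) and CAG3 at 12 h (1.04), and with equal sums these values were -0.28 and 0.50. The Rubisco list held RBCS1, RBCS2, RCA1, RMT1 and RMT2, of which only the RBCS genes encode Rubisco itself. Among these 5 genes, all compared, 1 was at least 2-fold higher at 2 h, where 22% of all genes compared were, and 0 at 12 h. This was the small subunit gene RBCS2, with 26431 and 16155 FPKM with AgNPs at 12 h and 2 h, against 19471 and 6328 in the controls. Its ratio at 2 h was 1.35, and 0.0051 with equal sums. RBCS1 and RBCS2 encode nearly the same protein and may share reads.

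Photorespiration salvages the product of the oxygenase reaction of Rubisco. Of 23 symbols 15 were found, and of the 12 genes compared 1 was at least 2-fold higher at 2 h and 0 at 12 h. GCSH, the H protein gene of glycine decarboxylase, stood at 299 and 217 FPKM with AgNPs at 12 h and 2 h, against 155 and 99.3 in the controls, a ratio of 1.12 at 2 h and of -0.22 with equal sums. Of the 21 genes compared in the 3 lists, 1 was at least 2-fold higher with AgNPs at 12 h and 3 at 2 h, and 0 were lower at either time. These shares are not above those of all genes compared (16.7% and 22% higher). With centred ratios 0 were higher and 1 was lower, at 12 h. Under equal sums 0 were higher, 1 was lower at 12 h and 7 were lower at 2 h, where 5.78% and 35.6% of all genes were lower. The gene lower at 12 h was SHMT2, a serine hydroxymethyltransferase gene, named after its value was seen, with 13.9 FPKM with AgNPs and 24.6 in the control at 12 h and a centred ratio of -1.22.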

How the data were processed

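Per the labels' protocols, RNA was isolated with Trizol, and an Illumina mRNA-Seq kit was used for the libraries. The authors deposited FPKM values, 1 table per library, per the file headers. The submitters' processing notes name Cuffdiff and no version. The aligner, filters, build and the scaling between libraries, on which FPKM depends, were not given in the sources used here. Identifiers carry the suffix of annotation version 5.5. The RefSeq table of that version matched all 37 members with equal starts after 1 was added to the 0-based starts, and ends were equal for 36. It holds no sequences, and none were used.

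Sample titles gave the groups, with CK for the control. Log2 ratios of FPKM + 1 were taken for the 3271 genes averaging 5 FPKM or more, without a test. Every member is accounted for: those past the filter with all values, and those under it by name where a library reached 5 FPKM, otherwise by range. Genes of the 3 neighbouring lists are named where they were at least 2-fold apart with AgNPs. The members, the lists and the scaling alternatives were chosen with earlier results of these data known. The code was tested on simulated libraries with planted changes and no scaling difference, unlike the deposited libraries, whose FPKM sums differ. The tools were pandas 2.3.3 and numpy 2.4.6 in Python 3.11.15, statsmodels 0.14.6 for the lowess trend (fraction 0.5) and matplotlib 3.10.9 for figures.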

Additional observations from a re-analysis of the deposited data

How the results depend on the processing

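No paired analysis was possible because each group holds 1 library, so no replicate numbers can be matched. A fit with the times as pairs, whose error would come from 1 residual degree of freedom, was not run. The alternatives were pseudocounts of 0.1 and 5, no filter (36 genes) or a mean of at least 20 FPKM (6 genes), centring on the median gene, equal FPKM sums and subtraction of the lowess trend with span; added after the data were seen were RefSeq spans, the 12 h control as reference at 2 h and the difference of the AgNP effects. Counts not named here stayed within 1.5 times.

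For AgNPs at 2 h (3 of 15 higher, 1 lower), 2 were lower with a pseudocount of 0.1, 3 were lower when centred, 0 were higher and 6 lower with equal sums, and 1 was higher and 3 lower after removal of the span trend (0 and 3 with RefSeq spans). Of all 3271 genes, 78 were lower with a pseudocount of 0.1. After removal of the span trend 147 of them were higher and 154 lower. LCI36 turned to -0.11 with equal sums. Against the 12 h control 2 were higher and 1 lower, where 13% and 7.46% of all genes compared were. The lower one was CAH6 (-1.41). LCI36 turned to -0.20 and LCI5 to 0.083, where the median gene stood at 0.23. For AgNPs at 12 h (3 higher, 0 lower), 5 were higher without a filter, 0 when centred, 0 higher and 1 lower with equal sums, and 1 each way once the span trend was removed (0 and 1 with RefSeq spans). Among all genes, 689 of 16071 were higher without a filter. Once the span trend was removed, 81 of 3271 were higher and 85 lower. For 12 h over 2 h with AgNPs (3 higher, 3 lower), 1 was higher and 0 lower with a pseudocount of 5, 5 were higher without a filter, 1 was lower with a mean of at least 20 FPKM, 0 were higher when centred or with equal sums, and 1 was higher with RefSeq spans. Among all genes, 389 of 3271 were higher and 121 lower with a pseudocount of 5. Without a filter 962 of 16071 were higher, and 95 of 1242 were lower with a mean of at least 20 FPKM. For the controls (4 higher, 5 lower), 2 were higher with a pseudocount of 5, 9 lower without a filter, 2 higher and 2 lower with a mean of at least 20 FPKM, 2 higher when centred and after removal of the span trend (1 with RefSeq spans), and 0 higher with equal sums, where LCI34 turned to -0.12. Among all genes, 436 of 3271 were higher with a pseudocount of 5 and 367 after removal of the span trend. Without a filter 552 of 16071 were lower. With a mean of at least 20 FPKM 386 of 1242 were higher and 82 lower. For the difference of the AgNP effects (2 higher, 0 lower), 1 was lower with a pseudocount of 0.1, 0 were higher with a pseudocount of 5 or a mean of at least 20 FPKM, 4 without a filter and 5 with equal sums. Among all genes, 142 of 3271 were lower with a pseudocount of 0.1 and 26 higher with a pseudocount of 5. With a mean of at least 20 FPKM 13 of 1242 were higher, and 218 of 16071 without a filter. The cause was not tested. The span trend treated LCI3 as a gene of 19228 bp, the span in the tables, where RefSeq gives 1658 bp; its ratio at 2 h was 2.08 with the first and 0.77 with the second.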
